A study of Mus musculus with 32 samples.

Results

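The cytoplasm of mouse P19 cells depleted of SRSF3 was set directly against the cytoplasm of P19 cells depleted of SRSF7, with no control library in the contrast. P19 is an embryonal carcinoma line, a pluripotent tumour-derived line that grows like early embryonic cells. Knockdown used custom esiRNAs (enzymatically made pools of short interfering RNAs) delivered by lipid transfection for 36 h, and the control cells received an esiRNA against GFP. The series holds poly(A)+ RNA-seq of 8 groups, which are 7 SR protein knockdowns and the GFP control, each in 2 fractions and 2 biological replicates lettered A and B, 32 libraries in all. The comparison uses 4 of these 32 libraries: SRSF3 knockdown cytoplasm A and B, and SRSF7 knockdown cytoplasm A and B. The matching whole-cell libraries and the GFP cytoplasm libraries are given beside them. Each group is a transient depletion in 1 cell line.

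SR proteins are RNA-binding proteins with a domain rich in arginine and serine, and they are best known as activators of splicing. SRSF3 and SRSF7 shuttle between nucleus and cytoplasm and bind the export receptor NXF1, which carries mRNA through nuclear pores. Many mRNAs end at more than 1 site: an early (proximal) poly(A) site gives a short 3′ UTR or an early last exon, and a late (distal) site gives a long one. The comparison asks where loss of one protein leaves a different set of cytoplasmic transcripts from loss of the other.

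The 4 libraries held between 29752289 and 45310713 reads assigned to genes. Values of genes below are the deposited depth-scaled reads after a further TMM factor (a factor per library that sets most genes level), called normalised values. These are bulk libraries, in which fewer cells of a type and less RNA per cell cannot be told apart. The series calls the replicates biological but does not say how they were grown, so p-values measure the spread between these libraries. Replicates correlated at r = 0.969 after SRSF3 knockdown and 0.981 after SRSF7 knockdown across genes, which are not independent replicates, and the median gene differed between A and B by 0.44 and 0.29 on the log2 scale. Pou5f1, the defining pluripotency factor of these cells, had normalised values between 59743 and 104670 in the 4 libraries. Transcripts of pancreas and glands separated the letters and not the knockdowns. The summed normalised value of 12 such markers was 1587 and 31.9 in SRSF3 A and B, against 1528 and 50.8 in SRSF7 A and B. Liver and blood markers differed less between letters, with sums of 635 and 336 against 767 and 505. Muscle, skin and neuron markers did not separate the letters, with sums of 677 and 671 against 669 and 700. SRSF3 A also stood apart in mitochondrial transcripts. The 10 mitochondrially encoded genes tested summed to 1800180 and 702516 in SRSF3 A and B, against 814005 and 623855 in SRSF7 A and B and 745545 and 631259 in GFP A and B.

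The targeted transcripts followed the labels. Srsf7 had normalised values of 6228 and 4490 in SRSF3 knockdown A and B, against 1655 and 1614 in SRSF7 knockdown A and B, with 3616 and 3624 in GFP cytoplasm. The difference was 1.69 ± 0.21 on the log2 scale (SE, n = 2 each, limma adjusted p = 1.3e-04), and the groups did not overlap. Srsf3 had normalised values of 5694 and 3235 in SRSF3 knockdown, against 6417 and 5771 in SRSF7 knockdown, with 7262 and 6232 in GFP cytoplasm. Srsf3 fell by 0.50 ± 0.15 on the log2 scale (SE, limma adjusted p = 0.025), with a log2 difference of -0.17 between the A libraries and -0.83 between the B libraries. The call was lost without the block (adjusted p = 0.42), with only the 4 libraries in the fit (0.114), and without SRSF3 B, SRSF7 A or SRSF7 B (-0.28, -0.65 and -0.36 on the log2 scale). The depletion of Srsf3 mRNA in the A library was thus small beside that in the B library.

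At the level of genes, 1995 genes were higher and 1571 lower after SRSF3 knockdown than after SRSF7 knockdown among 17566 tested (limma, adjusted p below 0.05), so 20.3% of genes were called, 11.4% as higher and 8.94% as lower. Of the 3566 called genes, 3565 had the same sign in letters A and B. The call itself rests on the mean of the A and B differences, so this count is not separate support. At least 2-fold differences were more often increases, with 706 genes higher and 298 lower. Long intergenic RNAs were called higher in 65 of 405 cases (16%) and lower in 14. These counts rest on the letter block, which removes what the A libraries share against the B libraries: without it 201 genes were higher and 57 lower. Without SRSF3 A the counts were 536 and 288, and without SRSF7 A 598 and 256. All 258 genes called without the block were among the 3566.

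The genes with the largest increases were nearly silent after SRSF7 knockdown and in the control. Olfml3, which encodes a secreted olfactomedin-like protein, had normalised values of 892 and 577 after SRSF3 knockdown, against 11.7 and 12.9 after SRSF7 knockdown, with 10.5 and 3.89 in GFP cytoplasm. Its difference was 5.76 ± 0.48 on the log2 scale (SE, limma adjusted p = 8.8e-06). Stoml3, a stomatin-like membrane protein of touch-sensing neurons, had 276 and 219 after SRSF3 knockdown, against 5.84 and 3.45 after SRSF7 knockdown. Olfml3 rose in whole cells as well, by 5.88 on the log2 scale, and so did Stoml3, by 4.78.

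Chrnb2, the β2 subunit of the nicotinic acetylcholine receptor, had 535 and 558 after SRSF3 knockdown, against 49.6 and 41.3 after SRSF7 knockdown (log2 difference 3.56 ± 0.25). Klhl28, a kelch-repeat BTB protein, had 153 and 71.5 against 11.7 and 5.17. Tlcd2 had 176 and 56.1 against 11.7 and 11.2. In each of these 5 genes the lower SRSF3 library lay above the higher SRSF7 library.

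Lmbrd2 differed from these in its fractions. It had 245 and 87.9 after SRSF3 knockdown, against 16.5 and 11.2 after SRSF7 knockdown, with 25.6 and 7.78 in GFP cytoplasm, a log2 difference of 3.34 ± 0.49. In whole cells its log2 difference was -0.03, and the difference between the fractions was 3.37 (limma interaction, adjusted p = 4.8e-04). Klhl28 rose in both fractions and more in the cytoplasm, by 2.27 on the log2 scale (interaction adjusted p = 0.015).

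Of the other genes that the naming rule picked as higher, Tcte3 and Gm3448 belong to a family of near-identical dynein light chain genes, so the split of reads between them is uncertain. Their log2 differences were 3.57 and 3.37. C130036L24Rik, A930006K02Rik and Stamos are noncoding transcripts that had log2 differences of 3.67, 3.33 and 3.67. Gm15886 is annotated as antisense, and no source used here says that reads were counted by strand, so its 201 and 196 against 26.3 and 20.7 may include reads of an overlapping gene.

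**Figure D1:**
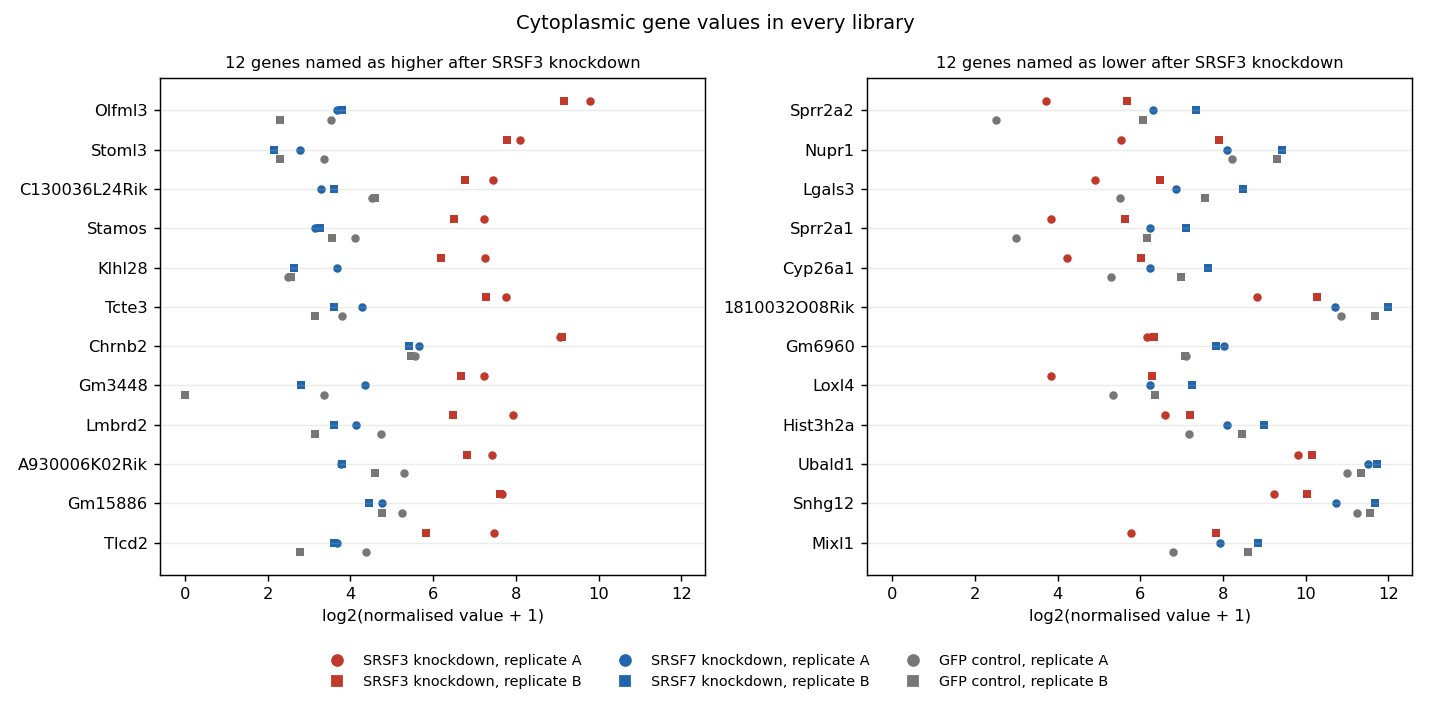
Normalised values of the 24 named genes in every cytoplasmic library, on a log2(value + 1) axis; points are single libraries of the SRSF3 knockdown, the SRSF7 knockdown and the GFP control, and circles and squares are replicates A and B. In the 12 genes named as higher the SRSF3 knockdown libraries sit to the right of every other library, and among the 12 named as lower several genes are also lower in A than in B in every group.

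Of the 12 genes named for the largest decreases, Gm6960 and Ubald1 kept their call without the block and the other 10 did not. Nupr1, a stress-induced chromatin-associated protein, had 45.4 and 238 after SRSF3 knockdown, against 275 and 694 after SRSF7 knockdown, with 297 and 634 in GFP cytoplasm. It fell by 2.06 ± 0.32 on the log2 scale (SE, limma adjusted p = 6.9e-04), and the 2 knockdowns did not overlap. Lgals3, the lectin galectin-3, had 28.8 and 87.9 against 115 and 356, a log2 difference of -1.98 ± 0.32. Cyp26a1, the enzyme that breaks down retinoic acid, had 17.7 and 63.8 against 74.0 and 198, a log2 difference of -1.81 ± 0.34. In these 3 genes replicate B exceeded replicate A in both knockdowns.

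Mixl1, a homeobox factor of the primitive streak, had 54.3 and 228 against 243 and 458 (log2 difference -1.57 ± 0.25). Loxl4, a lysyl oxidase-like enzyme of the extracellular matrix, had 13.3 and 77.0 against 74.0 and 151 (log2 difference -1.68 ± 0.36). The knockdowns were narrowly apart in Mixl1 and overlapped in Loxl4, where each letter on its own was lower after SRSF3 knockdown. Ubald1 was steadier between letters, with 906 and 1147 against 2910 and 3375 (log2 difference -1.62 ± 0.16, limma adjusted p = 2.3e-05). Gm6960, a pseudogene, had 70.9 and 80.1 against 262 and 226. Sprr2a1 and Sprr2a2 are near-identical small proline-rich genes whose reads may be split, and their log2 differences were -1.94 and -2.12. Hist3h2a, a histone H2A gene, and 1810032O08Rik had log2 differences of -1.64 and -1.79.

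The gene lists that follow are read against the shares over all genes, 11.4% higher and 8.94% lower, and against the fit without the letter block. Without the block no member of any list was called, except 1 endoplasmic reticulum chaperone, 1 cholesterol gene and 1 cell cycle gene, all higher. Among the SR protein genes themselves, which include both targets, 5 of 13 were higher (38.5%) and 1 lower (7.69%), with a median log2 difference of 0.46, against a median of -0.003 over all genes. Srsf11 had 5061 and 2141 after SRSF3 knockdown, against 2050 and 1443 after SRSF7 knockdown (log2 difference 0.94 ± 0.19). Srsf10 had 2477 and 894 against 956 and 744, so its B libraries nearly met. Srsf10 and Srsf11 rose in the cytoplasm relative to whole cells, by 1.10 and 0.80 on the log2 scale (interaction adjusted p = 0.020 and 0.04995). Without SRSF3 A, 1 SR protein gene was called higher and 1 lower, and without SRSF7 A 1 and none.

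Of 7 kinases that phosphorylate SR proteins, 1 was higher and 1 lower (14.3% each). Clk3 had 1616 and 1483 after SRSF3 knockdown, against 2451 and 2658 after SRSF7 knockdown, a log2 difference of -0.72 ± 0.13. Clk1 had 552 and 247 against 185 and 169, a log2 difference of 1.06 ± 0.28. Srpk1 and Clk2 did not pass, at 0.02 and -0.23.

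Of 27 genes of NXF1-dependent mRNA export and the TREX complex, 3 were higher and 1 lower (11.1% and 3.70%, close to the shares over all genes). Rbm15, an RNA-binding protein of the m6A writer complex that also works with NXF1, had 1315 and 1315 after SRSF3 knockdown, against 763 and 353 after SRSF7 knockdown (log2 difference 1.34 ± 0.21). Its relative Rbm15b ran the other way, with 458 and 474 against 600 and 773 (log2 difference -0.55 ± 0.17). Fyttd1, the export adaptor UIF, had a log2 difference of 0.66 and Eny2, a TREX-2 subunit, 0.65.

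Of 20 cleavage and polyadenylation factors, 6 were higher (30%) and 1 lower (5%), without SRSF3 A 2 were higher and none lower, and without SRSF7 A 1 and none. Clp1, a subunit of cleavage factor II, had 1404 and 1037 after SRSF3 knockdown, against 672 and 614 after SRSF7 knockdown (log2 difference 0.91 ± 0.14). Cstf2, the CstF subunit that binds downstream of the poly(A) signal, had 4312 and 4240 against 3175 and 2972 (log2 difference 0.48 ± 0.12). Cstf2 passed in the cytoplasm relative to whole cells as well, with a fraction difference of 0.67 (interaction adjusted p = 0.0035). Rbbp6, an activator of cleavage, had 1502 and 451 against 624 and 354, and its B libraries lay close together. Sympk, the scaffold symplekin, had 9202 and 12507 against 13570 and 16321 (log2 difference -0.47 ± 0.12).

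Among 25 hnRNP genes, 1 was higher (4%) and 2 lower (8%), no more than among all genes. Ptbp1, a repressor of splicing, had 19372 and 19382 after SRSF3 knockdown, against 28749 and 26880 after SRSF7 knockdown (log2 difference -0.52 ± 0.12). Hnrnpd (AUF1), which binds AU-rich elements, had a log2 difference of -0.65, and Hnrnpc 0.40. Of 17 nonsense-mediated decay and exon junction genes, 3 were higher (17.6%) and 2 lower (11.8%), and without SRSF3 A or without SRSF7 A 1 was higher and none lower. Smg5 had 11523 and 11060 against 7493 and 7478, a log2 difference of 0.59 ± 0.12, and Rnps1 had 12502 and 9899 against 7528 and 6711, a log2 difference of 0.65 ± 0.13.

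Host genes of snoRNAs, whose spliced RNAs are sensitive to decay, did not move as 1 group: of 9 tested, 1 was higher and 2 lower. Snhg3 had 3322 and 1486 after SRSF3 knockdown, against 760 and 346 after SRSF7 knockdown (log2 difference 2.11 ± 0.26, limma adjusted p = 1.1e-04). Snhg5 had 665 and 505 against 1450 and 1229, a log2 difference of -1.20 ± 0.24. Snhg12 had 604 and 1047 against 1713 and 3284, a log2 difference of -1.57 ± 0.33.

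Genes of the integrated stress response, the ATF4 programme of amino acid supply, were lower in 9 of 23 cases (39.1%, against 8.94% of all genes) and higher in none, with a median of -0.45 on the log2 scale (limma; 16 were lower and none higher at an unadjusted p under 0.05, and edgeR also called none higher). Atf5, a transcription factor of that programme, had 1267 and 2796 after SRSF3 knockdown, against 3569 and 7260 after SRSF7 knockdown (log2 difference -1.43 ± 0.19). Psph, which makes serine, had 3118 and 5646 against 6812 and 8364. Stc2, a secreted glycoprotein induced by stress, had 1367 and 3093 against 4980 and 4063. None of the 9 calls held without the block, while 3 of the 23 were lower without SRSF3 A and likewise 3 without SRSF7 A.

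Endoplasmic reticulum chaperones were higher in 5 of 18 cases (27.8%) and lower in none (limma, with 7 and none at an unadjusted p under 0.05 and the same counts of 5 and none by edgeR). Hspa5 (BiP), the main chaperone of that compartment, had 8729 and 4018 after SRSF3 knockdown, against 3671 and 2327 after SRSF7 knockdown (log2 difference 1.02 ± 0.18). Edem1, which marks misfolded glycoproteins for degradation, had 2435 and 2654 against 1141 and 1178 (log2 difference 1.13 ± 0.15, limma adjusted p = 1.5e-04). Without the block 1 of the 18 was called, Edem1 (adjusted p = 0.022), and Hspa5 was not (0.334). Without SRSF3 A 2 were higher, and without SRSF7 A 3.

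Cholesterol synthesis genes were higher in 9 of 23 cases (39.1%, against 11.4% of all genes) and lower in 1, with a median of 0.33. Insig1, the sterol sensor partner of SREBP, had 6659 and 4050 after SRSF3 knockdown, against 1936 and 1849 after SRSF7 knockdown (log2 difference 1.46 ± 0.21). Lss, lanosterol synthase, had 6949 and 7393 against 5047 and 3222, and Hmgcs1, the synthase of the first committed intermediates, 4922 and 2141 against 1859 and 1203. Without the block 1 gene of this list was called, Insig1 (adjusted p = 0.020). Without SRSF3 A 5 were higher, and without SRSF7 A 7.

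Pluripotency genes were lower in 6 of 17 cases (35.3%, against 8.94% of all genes) and higher in 1. None was called without the block, 2 were lower without SRSF3 A and 1 without SRSF7 A. Pou5f1 (Oct4) had 59743 and 72620 after SRSF3 knockdown, against 101630 and 104670 after SRSF7 knockdown (log2 difference -0.65 ± 0.14), and the groups did not overlap. Otx2 had 4002 and 4001 against 5566 and 5558, a log2 difference of -0.47 ± 0.12. Esrrb had 63.1 and 126 against 207 and 207, and Dnmt3l 312 and 818 against 715 and 1412. Of 20 differentiation markers, 4 were lower and none higher (limma, with 6 and 1 at an unadjusted p under 0.05, and 4 and none by edgeR), among them Krt19 (682 and 4727 against 1514 and 8422) and Tagln (182 and 923 against 239 and 2157). In Krt19 and Tagln the letters differed more than the knockdowns did.

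Cell cycle genes were higher in 6 of 25 cases (24%) and lower in 4 (16%). Without SRSF3 A 2 were higher and none lower, and without SRSF7 A or without the block 1 was higher and none lower. Ccnb1 (cyclin B1) had 8605 and 8593 after SRSF3 knockdown, against 5418 and 5320 after SRSF7 knockdown (log2 difference 0.68 ± 0.12). Ccna2 (cyclin A2) had 6912 and 6287 against 4678 and 4433. Of 17 p53 targets, 1 was higher and 3 lower (none and 1 without SRSF3 A or without SRSF7 A), with Phlda3 at 96.4 and 201 against 244 and 423. All 34 cytoplasmic ribosomal protein genes had negative log2 differences with a median of -0.27, and 6 passed (17.6%, with 22 at an unadjusted p under 0.05), such as Rpl8 (80427 and 116530 against 114400 and 157640). None of these 6 calls held without the block, without SRSF3 A or without SRSF7 A.

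Mitochondrially encoded genes were higher in 4 of 10 cases and lower in none (limma, with 9 and none at an unadjusted p under 0.05, and 5 and none by edgeR), with a median of 0.55, and 1 library stood above the rest: mt-Nd5 had 48632 and 19122 after SRSF3 knockdown, against 20957 and 15073 after SRSF7 knockdown. Without SRSF3 A none of them was called. None of 8 nuclear long noncoding RNAs passed (limma, with 3 at an unadjusted p under 0.05 and none by edgeR), and Malat1, a marker of nuclear RNA, had 508 and 70.8 against 183 and 81.0 (log2 difference 0.64 ± 0.28, limma adjusted p = 0.12), again highest in SRSF3 A. None of 17 replication-dependent histone genes passed (limma, with 1 at an unadjusted p under 0.05 and 1 by edgeR), with a median of -0.46. Of the other-tissue lists, none of 12 pancreas and gland genes (none also at an unadjusted p under 0.05 and by edgeR), 1 of 9 liver and blood genes (Cd74, lower) and 1 of 10 muscle, skin and neuron genes (Snap25, higher) passed.

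The same contrast in whole cells called 3021 genes higher and 3053 lower of 18540 tested (32.8%, limma). Of the 3542 genes called in the cytoplasm that were also tested in whole cells, 1972 passed there with the same sign. The difference between the fractions was itself tested as an interaction over all 32 libraries. For 640 of 17030 genes the SRSF3 minus SRSF7 difference was higher in the cytoplasm than in whole cells (3.76%), and for 119 it was lower (0.699%; limma, adjusted p below 0.05, 4.46% called in all). Without the letter block 9 were higher and 1 lower. Leaving out single cytoplasmic libraries gave between 266 calls (without SRSF7 A) and 1672 calls (without SRSF3 B).

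Atf2, a transcription factor of the CREB family, had cytoplasmic values of 3163 and 1150 after SRSF3 knockdown, against 503 and 351 after SRSF7 knockdown, with 607 and 413 in GFP cytoplasm (log2 difference 2.18 ± 0.20). In whole cells Atf2 had 3495 and 2302 after SRSF3 knockdown, against 2767 and 2387 after SRSF7 knockdown, a log2 difference of 0.14. The cytoplasmic libraries of Atf2 did not overlap and the whole-cell libraries did, and the fraction difference was 2.04 (interaction adjusted p = 4.6e-05).

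Prkcb, protein kinase C β, had 1042 and 1222 after SRSF3 knockdown, against 463 and 414 after SRSF7 knockdown in the cytoplasm, and a fraction difference of 1.69. Ccny, cyclin Y, had 1604 and 1532 against 983 and 881, and a fraction difference of 1.24. Nupl1, a channel nucleoporin, had 1973 and 1181 against 928 and 599, and Chic1 had 215 and 187 against 83.7 and 93.9, with fraction differences of 1.39 and 1.86. In whole cells Chic1, Ccny and Nupl1 were lower after SRSF3 knockdown, with log2 differences of -0.69, -0.49 and -0.36.

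In the other direction, Man2c1, a cytosolic α-mannosidase, had 723 and 1002 after SRSF3 knockdown, against 1098 and 1439 after SRSF7 knockdown in the cytoplasm, and was higher in whole cells (log2 difference 0.61). Its fraction difference was -1.17. Zswim8, a ubiquitin ligase adaptor, had 1031 and 867 against 1600 and 1219, with a fraction difference of -1.09. Arhgef7, a guanine nucleotide exchange factor, had 1827 and 1744 against 2065 and 2048, which did not pass in the cytoplasm (adjusted p = 0.23), with a fraction difference of -0.75. P2rx5, an ATP-gated channel, and Gm16853, an intergenic RNA, had fraction differences of -2.24 and -3.43 and low cytoplasmic values (33.2 and 30.3 against 46.7 and 41.3 for P2rx5).

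**Figure D2:**
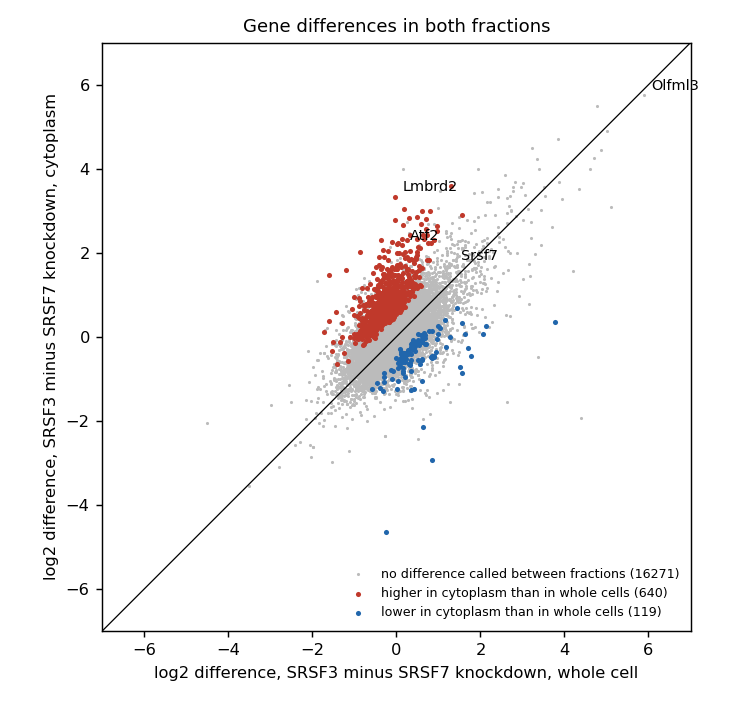
Log2 difference of each gene (SRSF3 minus SRSF7 knockdown) in the cytoplasm on the vertical axis and in whole cells on the horizontal axis, 17030 genes, with the line of equal difference. The 640 genes called higher in the cytoplasm than in whole cells lie above the line and the 119 called lower lie below it, while Olfml3 lies near the line.

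Exon usage was compared within genes. Each gene is cut into bins at every exon boundary of its transcripts, and usage is a bin's reads relative to the other bins of the same gene. Of 153952 bins tested in the 4 libraries, 1822 had higher (1.18%) and 3114 lower usage (2.02%) after SRSF3 knockdown (limma diffSplice, adjusted p below 0.1), so 3.21% were called, in 2855 genes. In 4922 of the 4936 called bins the sign was the same in both letters, which the choice of called bins itself favours.

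The decreases lay at the ends of genes. Last exons held 13.5% of the bins tested and 69.2% of the bins with lower usage: 2156 of 20826 last-exon bins were lower (10.4%, against 2.02% of all bins) and 123 higher (0.591%). First exons ran the other way, with 238 of 9006 bins higher (2.64%) and 24 lower. Internal exons were higher in 1164 of 113561 cases (1.02%) and lower in 644 (0.567%). The 2156 last-exon bins belonged to 1906 genes and had a median length of 1798 bases. Their median usage was 21.2% and 22.5% in SRSF3 A and B, against 34.8% and 36.3% in SRSF7 A and B and 31.0% and 32% in GFP A and B.

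**Figure D3:**
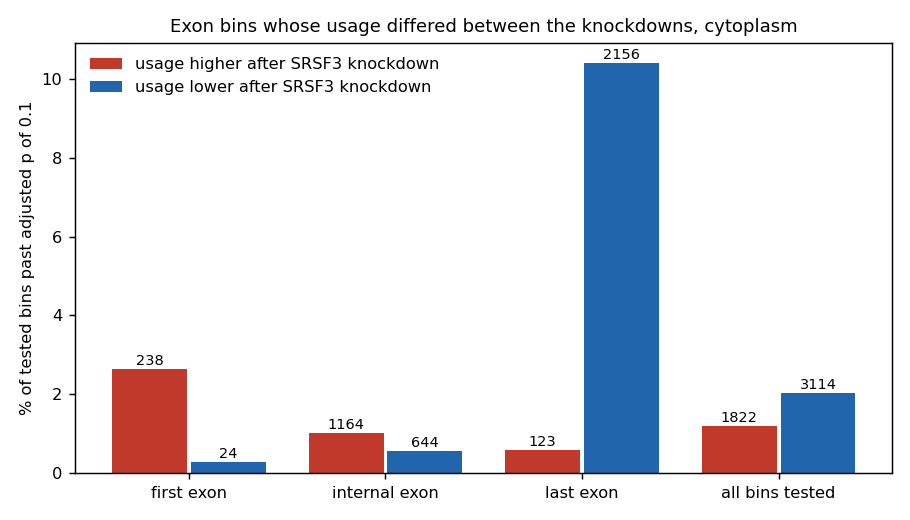
Share of tested exon bins in first, internal and last exons, and among all bins, whose usage passed an adjusted p of 0.1, with usage higher after SRSF3 knockdown on the left of each pair and lower on the right; numbers over the bars count bins. The bar of last exons with lower usage, at 10.4%, stands above all others.

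The block and single libraries moved these counts, and last exons had more bins lower than higher under each of these fits. Without the block 740 last-exon bins were lower and 38 higher, and without SRSF3 A (fitted with no block) 578 were lower and 27 higher. Without SRSF7 A 201 were lower and 7 higher, and without SRSF7 B 193 and 10. Internal exons did not keep their balance in every fit. Without the block 177 internal bins were higher and 194 lower. Lower bins also outnumbered higher ones without SRSF3 A, SRSF7 A or SRSF7 B, but not without SRSF3 B. Higher bins stayed in the majority with the GFP libraries added (1677 and 825) and with a mean of at least 20 reads (996 and 490). They did so too with a pseudocount of 5 (973 and 646) and with edgeR (1330 and 233). With edgeR's diffSpliceDGE 651 last-exon bins were lower and 135 higher, but its calls over all bins were 1897 higher and 994 lower, so the balance of all bins depends on the tool.

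Usage is a share, so it falls when other bins of a gene rise. Of the 2156 last-exon bins, 914 had fewer depth-scaled reads in both SRSF3 libraries than in both SRSF7 libraries, 156 had more in both, and in 1086 the libraries overlapped. Of the 1164 internal bins with higher usage, 1036 had more reads in both SRSF3 libraries. The shift was also seen in coverage as a whole: across 8175 genes with at least 200 reads in every library, the median share of a gene's reads that lay in the last exon was 33.8% and 34.6% in SRSF3 A and B, against 39.6% and 39.8% in SRSF7 A and B and 37.6% and 38.2% in GFP A and B. In whole cells these shares were 31.3% and 30.7% in SRSF3 knockdown, against 31.5% and 31.0% in SRSF7 knockdown and 30.4% and 32.3% in the GFP control. The cytoplasmic knockdowns did not overlap and the whole-cell ones did, and whether the coverage of cytoplasmic libraries differed for technical reasons was not tested.

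Hipk1, a homeodomain-interacting kinase, showed the smallest p among the named bins. Its last-exon bin (chromosome 3, 103739815 to 103743561, minus strand, mm10) took 15.6% and 12.3% of the gene's reads after SRSF3 knockdown, against 69.2% and 72.5% after SRSF7 knockdown, with 59.5% and 68.6% in GFP cytoplasm (log2 usage difference -3.72, limma diffSplice adjusted p = 5.4e-17). In whole cells the same bin took 13.4% and 14.5% after SRSF3 knockdown, against 27.7% and 26.0% after SRSF7 knockdown. The bin held 654 and 608 reads in SRSF3 A and B, against 1197 and 1142 in SRSF7 A and B. The gene as a whole was higher after SRSF3 knockdown, with normalised values of 3220 and 2595 against 1506 and 1225.

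Atf2 joined both results. Its last-exon bin (chromosome 2, 73816524 to 73818265, minus strand, mm10) took 3.99% and 3.56% of the gene's reads after SRSF3 knockdown, against 28.0% and 30.1% after SRSF7 knockdown, with 26.7% and 27.3% in GFP cytoplasm. The bin's own 200 and 93 reads in SRSF3 A and B, against 216 and 181 in SRSF7 A and B, changed less than the gene's other bins, since the gene's cytoplasmic value rose. An annotated alternative last exon event of Atf2, given below, ran the other way.

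Rc3h2 (Roquin-2, which promotes decay of target mRNAs) used its last-exon bin for 13.8% and 16.7% of reads after SRSF3 knockdown, against 76.4% and 83.1% after SRSF7 knockdown. In whole cells the shares were 13.3% and 16.6% against 25.1% and 26.6%. Mob1b, a coactivator of Hippo pathway kinases, had 15.6% and 10.2% against 56.3% and 66.4% in the cytoplasm, and a gene value of 567 and 296 against 116 and 88.7. Hipk3, whose last bin overlaps the annotation of a microRNA gene, had 7.73% and 3.05% against 44.2% and 54.4%. In all 3 genes the SRSF3 and SRSF7 knockdown libraries were far apart in the cytoplasm.

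Pank3, a pantothenate kinase that starts coenzyme A synthesis, had 35.4% and 33.6% of its reads in the last-exon bin after SRSF3 knockdown, against 90.0% and 88.9% after SRSF7 knockdown. Here the bin itself gained reads (1495 and 788, against 441 and 338) while the gene rose more, with normalised values of 3817 and 1481 against 463 and 317. Prkaa2, the α2 catalytic subunit of AMP kinase, had 52.9% and 42.0% against 91.6% and 94.1%, and Impad1, a Golgi nucleotide phosphatase, 73.8% and 72.6% against 96.6% and 97.3%. The own depth-scaled reads of the Prkaa2 bin and of the Impad1 bin overlapped between the knockdowns. The remaining bins named by the rule were the last exon of B130034C11Rik (73.1% and 69.2% against 99.7% and 97.4%) and an exon of Shisa3 that counts as internal (90.9% and 85.0% against 98.6% and 98.1%).

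**Figure D4:**
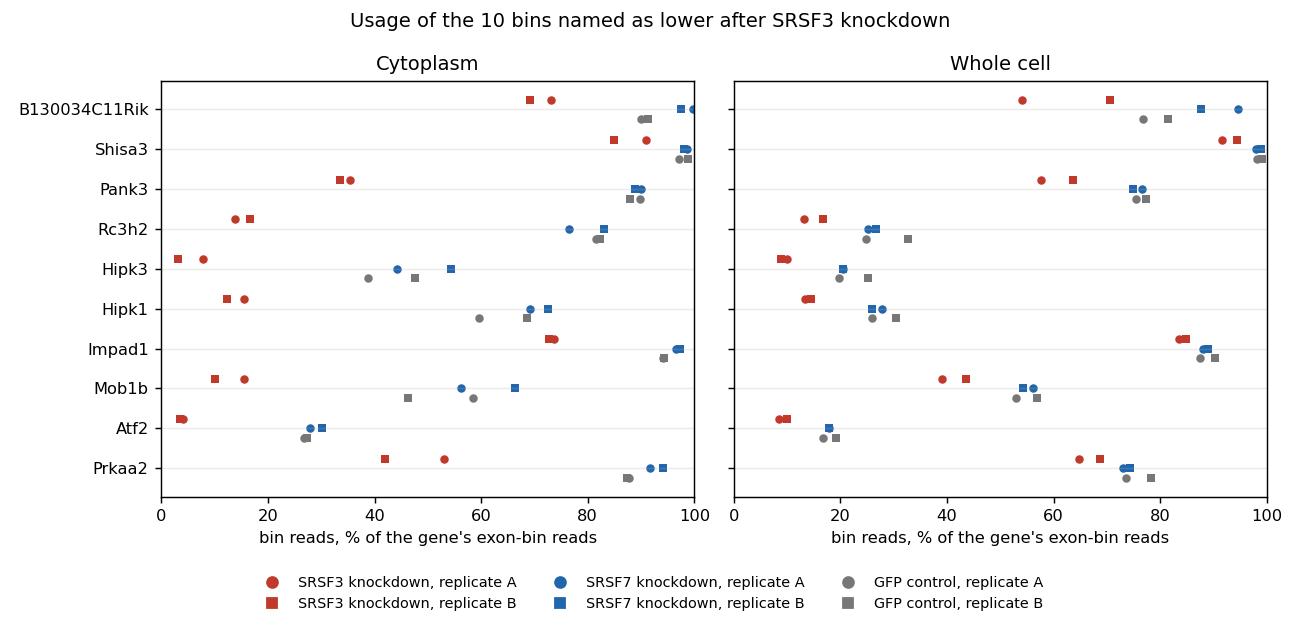
Share of the gene's exon-bin reads that fell in each of the 10 bins named as lower, by library, in the cytoplasm (left) and in whole cells (right); red is SRSF3 knockdown, blue SRSF7 knockdown, grey the GFP control, circles replicate A and squares replicate B. In the cytoplasm the SRSF3 knockdown points lie left of all others in every gene, and in whole cells the gap is narrower in most of them.

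Bins with higher usage after SRSF3 knockdown were mostly bins with little use after SRSF7 knockdown, in internal exons for 5 of the 10 named and in last exons for 5. Gorasp2, a Golgi stacking protein, used a last-exon bin of 825 bases (chromosome 2, 70711812 to 70712636, plus strand, mm10) for 4.18% and 4.01% of its reads after SRSF3 knockdown, against 0.08% and 0.03% after SRSF7 knockdown, with 0.03% and 0.02% in GFP cytoplasm. That is 288 and 467 reads, against 8 and 3, and whole cells showed 6.15% and 4.68% against 0.15% and 0.07%. Arid3b, a DNA-binding protein, had an internal bin at 2.15% and 2.64% against 0.09% and 0.11%. Brip1, a DNA helicase of crosslink repair, had an internal bin at 8.27% and 13.7% against 0.29% and 0.32%, with 2.15% and 2.22% in GFP cytoplasm. These bins of Gorasp2, Arid3b and Brip1 were also higher in whole cells in both letters.

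Zfp865, a zinc finger gene, had a last-exon bin at 64.5% and 61.1% after SRSF3 knockdown, against 8.45% and 10.4% after SRSF7 knockdown (924 and 1134 reads, against 43 and 81). Aebp2, a cofactor of Polycomb complex PRC2, had 6.66% and 4.59% against 0.28% and 0.44%. The bins of Gid4, Pvrl3 (nectin-3), Pigt, Stam and Gt(ROSA)26Sor completed the named set, with log2 usage differences of 4.40, 3.93, 3.72, 4.31 and 4.18. The Stam bin may share reads with Stamos, a transcript of the opposite strand that was also among the genes with the largest increases.

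Last exons and cytoplasmic levels were set side by side. Of 1532 genes higher in the cytoplasm after SRSF3 knockdown and with a last-exon bin tested, 489 (31.9%) had a last-exon bin with lower usage, against 1906 of all 11291 such genes (16.9%). Of 1248 genes lower in the cytoplasm 65 did (5.21%). Of 534 genes higher in the cytoplasm than in whole cells 306 did (57.3%), and of 86 lower in the cytoplasm than in whole cells 6 did (6.98%). In the other direction, these 306 genes were 16.1% of the 1906. Both measures come from the same libraries, so they share their errors.

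Annotated tandem 3′ UTRs give a second view of the same ends, from the same libraries. In such an event 1 last exon ends at a proximal or a distal poly(A) site, and the long-form fraction is the share of transcripts that run to the distal site, as estimated by MISO from replicates pooled by the authors. There is no replicate error, so events were counted where the intervals of the 2 knockdowns did not overlap and their fractions differed by at least 0.2. Of 1173 events, 94 were counted (8.01%). The long form was lower after SRSF3 knockdown in 93 of them and higher in 1. At a minimum difference of 0.1 the counts were 232 and 5 (20.2% of events).

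Among the 93 events, the long-form fraction had a median of 0.55 after SRSF3 knockdown (from 0.15 to 0.79), against 0.86 after SRSF7 knockdown (from 0.47 to 1.00), with 0.76 in GFP cytoplasm (from 0.29 to 1.00). In 38 of the 93 the SRSF3 knockdown was at least 0.2 from the GFP control, and in 7 the SRSF7 knockdown was. The events had a median extension of 1118 bases, against 678 over all 1173 events. Of their 93 genes 33 (against 11.4% of all genes) were higher in the cytoplasm after SRSF3 knockdown than after SRSF7 knockdown and none lower (limma, with 45 and 2 at an unadjusted p under 0.05, and 35 and none by edgeR), and 17 (against 3.76% of all genes) were higher in the cytoplasm relative to whole cells and none lower (41 and none at an unadjusted p under 0.05). The same shares over the genes of all 1173 events were not computed, nor were the counts of this set without the block. A last-exon bin with lower usage was found in 53 of the 86 of these genes that had one tested, against 16.9% of all genes. Both measures use reads of the same last exons in the same libraries, so the choice of events partly fixed this overlap.

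**Figure D5:**
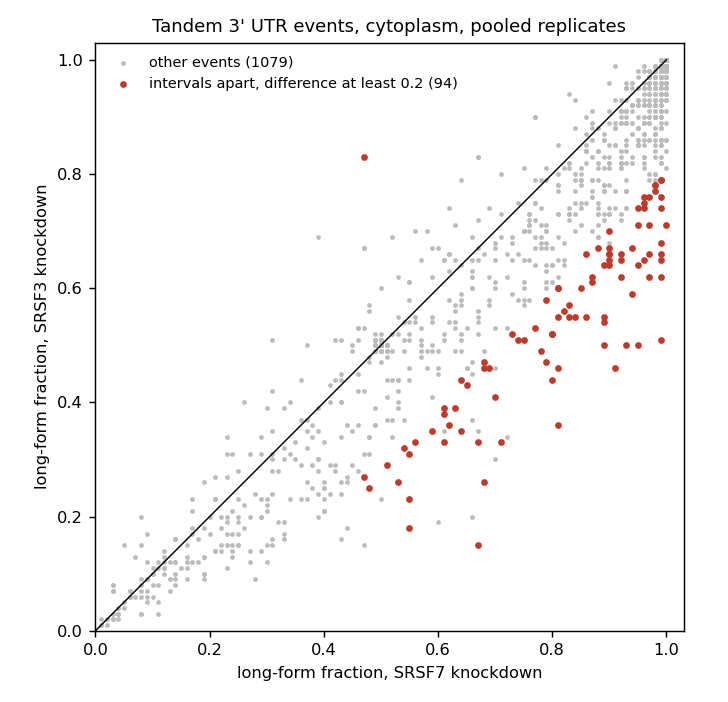
Long-form fraction of 1173 tandem 3′ UTR events after SRSF3 knockdown (vertical axis) and after SRSF7 knockdown (horizontal axis), pooled replicates of the cytoplasm, with the line of equal fractions. Of the 94 events drawn in red, whose intervals did not overlap and which differed by at least 0.2, 93 lie below the line.

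Rictor, the defining subunit of mTOR complex 2, had a long-form fraction of 0.51 (MISO interval 0.43 to 0.59) after SRSF3 knockdown, against 0.99 (0.95 to 1.00) after SRSF7 knockdown, with 0.98 in GFP cytoplasm. Its cytoplasmic gene value was 401 and 207 after SRSF3 knockdown, against 133 and 116 after SRSF7 knockdown (log2 difference 1.20 ± 0.24). Tmem30a, the β subunit of lipid flippases, had 0.46 (0.41 to 0.51) against 0.91 (0.85 to 0.98), and a gene value of 755 and 391 against 258 and 176. Tia1, an RNA-binding protein of stress granules, had 0.36 (0.27 to 0.46) against 0.81 (0.70 to 0.90), while its gene value of 471 and 266 against 408 and 320 did not pass (adjusted p = 0.93). In whole cells Tia1 was lower after SRSF3 knockdown (log2 difference -0.30, limma adjusted p = 0.026). The shift of ends was thus found with and without a call for the gene's cytoplasmic level.

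Clip1, a microtubule plus-end protein, had 0.15 (0.03 to 0.32) against 0.67 (0.47 to 0.85), and Ankib1, a ubiquitin ligase, 0.50 (0.33 to 0.71) against 0.95 (0.88 to 0.99). The single event in the other direction was in Dyx1c1, a dynein assembly factor, with 0.83 (0.65 to 0.99) after SRSF3 knockdown, against 0.47 (0.32 to 0.64) after SRSF7 knockdown.

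The poly(A) signal, AATAAA or its common variant ATTAAA, lies a short way before the cut site. The 30 bases around this hexamer at both ends of the 3 events described in full are shown in mm9, 5′ to 3′ on the transcribed strand and with the hexamer in capitals, since these are the ends between which the transcripts of the knockdowns were divided. For Rictor the proximal window is chr15:6747375-6747404 and the distal one chr15:6750364-6750393, both on the plus strand and in the 3′ UTR of the last exon. For Tia1 they are chr6:86382139-86382168 and chr6:86382753-86382782, on the plus strand. For Tmem30a they are chr9:79618608-79618637 and chr9:79616751-79616780, on the minus strand.
Rictor proximal: atcttcacaggaATTAAAcatatatgcaaa
Rictor distal: ggattcattgttAATAAAatgtacttaaaa
Tia1 proximal: ttatggaagatgAATAAAttttttaaatac
Tia1 distal: gactgtttggatATTAAAattcctttatgt
Tmem30a proximal: agaaagactataAATAAAacacttcatcat
Tmem30a distal: atgttttgtattAATAAAcgtgaacaaaat

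Each of these 6 ends has a hexamer, 16 to 20 bases from the annotated end, but the kind differs: Rictor has ATTAAA at its proximal end, Tia1 has it at its distal end and Tmem30a has AATAAA at both. The hexamers were searched on the transcribed strand in the last 50 bases before each end. Over all 1173 events AATAAA or ATTAAA was found before 59.7% of proximal ends and 84.1% of distal ends. Among the 93 events with less long form after SRSF3 knockdown these shares were 79.6% and 91.4%, with AATAAA alone before 63.4% of proximal ends, against 44.0% over all events. A hexamer in this window is a match of letters and not a measured cut site.

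Alternative last exons, where a gene ends in 1 of 2 different exons, moved in both directions. Of 7686 events 144 were counted by the same rule (1.87%). The distal exon was used less after SRSF3 knockdown in 82, more in 49, and could not be ordered in 13 from the deposited isoform labels and coordinates. These coordinates had lost their last digits. Which fraction belongs to the distal exon was taken from the order of these damaged coordinates, on the assumption that isoforms are listed in the same order, and all directions of these events rest on it. At a minimum difference of 0.1 the counts were 285 and 102 (5.46% of events, with those that had no order). The distal fraction of the 82 events had a median of 0.46 after SRSF3 knockdown, against 0.75 after SRSF7 knockdown, with 0.65 in GFP cytoplasm.

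Klhl15, a substrate adaptor of a ubiquitin ligase, had a distal fraction of 0.82 (0.70 to 0.92) after SRSF3 knockdown, against 0.21 (0.08 to 0.41) after SRSF7 knockdown, with 0.40 in GFP cytoplasm, and Itga2b, Lrrc9 and Matn2 had 0.84, 0.75 and 0.57 against 0.35, 0.28 and 0.12. Atf2, whose last-exon bin had lower usage after SRSF3 knockdown, had a distal fraction of 0.95 (0.93 to 0.97) against 0.68 (0.55 to 0.81), with 0.86 in GFP cytoplasm.

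In the larger set, Syn2, synapsin 2, had a distal fraction of 0.24 (0.10 to 0.42) after SRSF3 knockdown, against 0.81 (0.64 to 0.93) after SRSF7 knockdown, with 0.47 in GFP cytoplasm. Another counted event of Syn2 ran the other way, with 0.97 (0.94 to 0.99) against 0.76 (0.67 to 0.84). Atf7ip, Ppm1b, Recql, Vps13c and Gm2002 also had counted events in both directions. Dtna, dystrobrevin α, had 0.41 (0.31 to 0.51) against 0.95 (0.88 to 0.99), and Cacna1a, a calcium channel subunit, 0.12 (0.02 to 0.30) against 0.62 (0.37 to 0.82). Papola, the poly(A) polymerase, had 0.20 (0.14 to 0.28) against 0.63 (0.55 to 0.71), with 0.22 in GFP cytoplasm, and Pikfyve, a phosphoinositide kinase, 0.06 (0.02 to 0.14) against 0.48 (0.19 to 0.76), with 0.10 in GFP cytoplasm. In Papola and Pikfyve the control fraction lay within the interval of the SRSF3 knockdown.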

How the data were processed

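RNA-seq values of 4 cytoplasmic libraries were analysed, with the GFP and whole-cell libraries beside them. Per the labels, reads were called with CASAVA 1.8.2, trimmed with cutadapt and processed with TopHat2 2.0.9 or 2.0.10, Bowtie2 2.1.0 and Cufflinks 2.1.1, on builds mm10 and mm9. The gene tables deposited by the authors hold a signal, estimated reads per gene scaled to a common depth. The exon-bin signal deposited by the authors differs from reads only by a factor for each library, and undoing that factor gave whole reads for 100% of values. In the gene tables between 98.1% and 98.7% of low values did so, to within 0.1. Isoform fractions were deposited by the authors from MISO, run on pooled replicates. The authors' own fold changes and p-values were in the files and were not used.

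A count test had been foreseen, but with a scaled signal limma 3.58.1 was run on log2(value + 1), which understates changes of low genes, with TMM factors, the filterByExpr filter, a variance trend, the letter as a block and all 16 cytoplasmic libraries in the fit. The threshold for genes was 0.05 after Benjamini-Hochberg adjustment. Bins averaging 5 or more reads went into limma diffSplice over the 4 libraries (threshold 0.1), with merged gene sets tested but left out of the exon classes. A first or last exon is the first or last block of contiguous bins. A read that spans several bins counts in each. The gene tables listed 4 genes at exactly 0 in some cytoplasmic libraries whose exon bins held at least 100 reads (Eef1a1, mt-Atp8, mt-Atp6 and mt-Co3), and these were left out.

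The letters were taken as pairing because A minus B differences of any 2 of the 8 cytoplasmic groups correlated (Spearman rho from 0.45 to 0.83 over 28 pairs of groups, across 11795 genes, 0.72 for the pair compared here). In the interaction fit, the 2 fractions of a group and letter were not paired. Alternatives were edgeR 4.0.16 and DESeq2 1.42.0 on recovered reads, other scaling, filters and pseudocounts, fits without the block and fits without single libraries. Both fits were tested on simulated data. The simulated bins were independent, shared a single fixed spread and had no difference between letters. That test therefore cannot show how well the bin p-values hold in the real libraries. Named genes were the 12 per direction with the largest difference among called genes with a mean of at least 100 in 1 knockdown, a symbol and the same sign in both letters, with up to 4 members of each of 21 lists, 5 genes per direction for the interaction, 10 exon bins per direction with a mean of at least 50 reads and 5 events per direction. A named event is not reported here. The comparison, its rules and the lists were chosen with earlier results of these data known. Tandem events were given genes through the GENCODE annotation of mm9, and last exons through Entrez identifiers in RefSeq (GRCm38.p6), without their coordinates. R 4.3.3 and Python 3.11.15 were used.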

Additional observations from a re-analysis of the deposited data

Results flagged for a closer look

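These genes had an SRSF3 minus SRSF7 difference that itself differed between cytoplasm and whole cells (limma interaction over all 32 libraries, adjusted p below 0.05 over 17030 genes); the values are the cytoplasmic minus the whole-cell log2 difference. Higher in the cytoplasm were Lmbrd2 at 3.37, Gm15886 at 2.85, Klhl28 at 2.27, Atf2 at 2.04, Chic1 at 1.86, Prkcb at 1.69, Nupl1 at 1.39 and Ccny at 1.24. Members of the gene lists in the same direction were Dnajc3, an endoplasmic reticulum co-chaperone, at 1.11, Srsf10 at 1.10, the imprinted noncoding RNA Meg3 at 0.97, Eny2 at 0.86, Srsf11 at 0.80, Edem1 at 0.74 and Cstf2 at 0.67. Lower in the cytoplasm were Gm16853 at -3.43, P2rx5 at -2.24, Man2c1 at -1.17, Zswim8 at -1.09, Arhgef7 at -0.75 and the exon junction subunit Casc3 at -0.56. Without the letter block 10 genes in all were called by this test.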

How the results depend on the processing

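Without a replicate block the calls in SRSF3 minus SRSF7 were 258 cytoplasmic genes against 3566, 2326 whole-cell genes against 6074, 10 fraction differences against 759 and 1341 exon bins against 4936. Only the 4 libraries of the comparison in the fit gave 1003 genes. Leaving out 1 library gave between 824 and 3827 cytoplasmic genes, 2815 and 6475 whole-cell genes, 266 and 1672 fraction differences, and 354 and 2118 exon bins, the last fitted without the block. For exon bins edgeR diffSpliceDGE called 2891. A minimum difference of 0.1 gave 237 tandem events, against 94, and 420 last-exon events, against 144. Count tests, size factors, a pseudocount of 10, no filter and exon-bin sums gave between 2947 and 3766 genes. No called value of a named gene or bin changed sign under any alternative run. Among the 20 named bins, 3 lost their call without the block and 4 with edgeR diffSpliceDGE (Shisa3, B130034C11Rik, Impad1 and Prkaa2). Most of the named bins also lost it in each fit that left a single SRSF7 library, but few or none in the fits that left a single SRSF3 library. In all these fits the spread of the group with a single library cannot be measured. Why the SRSF7 libraries mattered more was not tested. Of the 90 named genes that were called, 73 lost their call without the block, 42 without SRSF3 A and 43 without SRSF7 A. With 2 libraries per group, the p-values of genes rest on a spread borrowed from the other knockdowns. Those of exon bins rest on the 4 libraries alone, with the spread pooled over the bins of a gene. Bins of a gene come from the same libraries and are not independent replicates, so very small bin p-values overstate the certainty. Cytoplasmic purity was not measured in the files used here.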
